A study of Homo sapiens with 17 samples.

Results

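The ratio of ribosome footprints to mRNA was measured gene by gene in HEK293 cells, an established human embryonic kidney line, 72 h after electroporation with a dCas9 ribonucleoprotein. dCas9 is the catalytically inactive form of Cas9. It was carried here by the sgIntron guide, which is directed at intron 12 of JAK2, so the cells received the complex without the DNA cut. The members are the 4 libraries of this condition among 17 in the series, chosen by their labels. The footprint libraries are e and f, and the mRNA libraries are a and b. Each was 1 of 2 replicates, and the methods describe pooling of several small electroporations per replicate plate. All 4 libraries share the electroporation and the guide, so cells that were never electroporated are not part of the comparison. The methods describe lysates split between both assays, but the letters of the footprint and mRNA libraries differ and do not show which libraries came from 1 lysate. Every footprint library was therefore set against every mRNA library, giving 4 pairs.

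In ribosome profiling, RNase digests the mRNA that is not covered by a ribosome, and the protected fragments are sequenced. The share of footprints on a coding region divided by the share of mRNA reads on the same region is the translational efficiency, which reflects how densely an mRNA is loaded with ribosomes relative to other mRNAs. Reading frames upstream of the coding region, structures near the cap and recoded stop codons are known to lower that loading on individual mRNAs. Terminal oligopyrimidine (TOP) mRNAs, which encode ribosomal proteins and elongation factors, begin with a C and a run of pyrimidines and are known to be repressed together when growth signalling falls.

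Counts on coding regions of the tested genes summed to 6699841 and 8822581 in the footprint libraries (e, f) and to 34156392 and 42554659 in the mRNA libraries (a, b). Of 19449 genes with a coding transcript, 16565 had a count and 11234 had a mean count of at least 20 in each library type. These 11234 genes were tested with edgeR's quasi-likelihood test, and the ratio was centred on the typical gene, so it is a relative measure. Levels are given as CPM, the count scaled to a common total of the normalised library, and a log2 ratio of 1 means 2 times as many footprints per mRNA read as the typical gene. Of the 11 genes that HEK293 cells were listed to express, 10 had a mean mRNA count of 20 or more. The 11 genes summed to 964 and 876 CPM in the mRNA libraries, against 5.73 and 5.32 CPM for the 7 fibroblast genes and 1.1 and 0.942 CPM for the 6 blood genes. Most of the sum for HEK293 came from VIM, with 23595 and 25477 mRNA counts. CDH2 followed with 4155 and 5617, and PAX2 had 6 and 12. The 4 liver genes all lay below a mean mRNA count of 20.

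Footprints followed mRNA across a wide range, and the ratio still spread over several-fold between genes. The rank correlation between footprint and mRNA level per codon was 0.872 over 11234 genes, as a description across genes of the same libraries. Both levels were divided by the same length, and a shared divisor can raise such a correlation. The interquartile range of the ratio was 0.63 to 1.42, and the central 90% lay between 0.308 and 2.86. At an adjusted p under 0.1 the ratio was above that of the typical gene in 3519 genes, 31.3% of those tested, and below it in 4087 genes, 36.4%. With a ratio of at least 2-fold also required, 1287 genes (11.5%) lay above and 1786 genes (15.9%) lay below. With plain library totals as the scale, the median of all genes moved by -0.16 on the log2 scale, and genes above made up 31.2% of the 2-fold calls rather than 41.9%. Replicates differed far less than genes did. The median absolute log2 difference was 0.14 between footprint libraries and 0.18 between mRNA libraries, against a median absolute log2 ratio of 0.58.

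**Figure D1:**
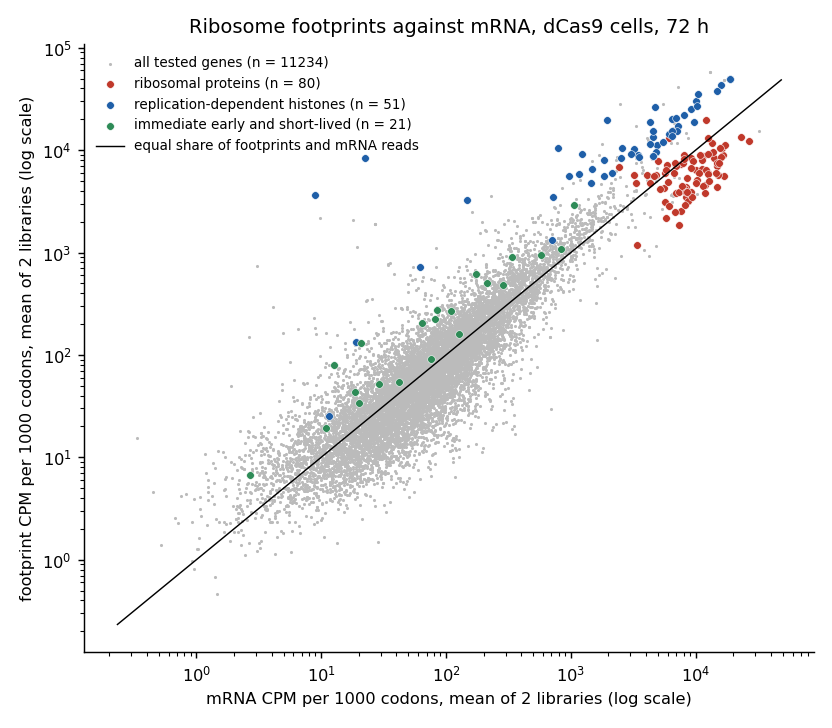
Footprint level against mRNA level, both in CPM per 1000 codons on log axes and averaged over 2 libraries, for each of the 11234 tested genes. Ribosomal protein genes (80, red) lie mostly below the line of equal shares, whereas replication-dependent histone genes (51, blue) and immediate early genes (21, green) lie on or above it.

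The 2 mRNA libraries differed systematically with base composition. The log2 difference of mRNA library b against a was related to coding GC content by a rank correlation of -0.826 over 11101 genes with a complete annotation, and to coding length by one of 0.177. The corresponding values between footprint libraries were 0.183 and 0.0239. Ranges over the 4 pairs are therefore given for sequence features and for the lists whose medians moved most between pairs.

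Sequence elements that are known to act on translation were present in several mRNAs, at ratios both far from and near that of the typical gene. The following stretches were read from the GENCODE transcripts on hg38. The first set shows the start of ribosomal protein and elongation factor mRNAs, with the opening pyrimidine run in capitals, because most of these genes had few footprints per mRNA read. Of those shown, EEF2 did not pass the test at a log2 ratio of -0.038, and RPS16 and RPL28 lay above the typical gene at 1.52 and 0.50.
RPS12 (chr6:132814569-132814588, plus strand): CTCTTTCCCTgccgccgccg
RPS2 (chr16:1964807-1964826, minus strand): CTTCTTTTCCgacaaaacac
RPL13A (chr19:49487608-49487627, plus strand): CTTTTCCaagcggctgccga
TPT1 (chr13:45341164-45341183, minus strand): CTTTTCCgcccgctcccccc
EEF1A1 (chr6:73521013-73521032, minus strand): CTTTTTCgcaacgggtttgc
EEF2 (chr19:3985444-3985463, minus strand): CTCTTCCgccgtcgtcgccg
RPS16 (chr19:39435930-39435949, minus strand): CCTTTTCCggttgcggcgcc
RPL28 (chr19:55385932-55385951, plus strand): CTCTTTCCgtctcaggtcgc

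The second set shows the first upstream reading frame of 3 to 8 codons in 4 mRNAs of stress and polyamine control, with the frame from its ATG to its stop codon in capitals. All 4 had ratios below 1, but the lists they come from also hold genes above 1. In the upstream reading frame list 10 of 18 tested genes were called below and 5 above. In the polyamine list 7 of 10 were called below and 2 above, against 36.4% and 31.3% of all tested genes.
ATF4 (chr22:39520645-39520659, plus strand): accATGGCGTATTAG
PPP1R15B (chr1:204411664-204411693, minus strand): tccATGGTGTTGAAGCGTCGAGCCGACTAG
AMD1 (chr6:110874793-110874816, plus strand): agtATGGCCGGCGACATTAGCTAG
SAT1 (chrX:23783232-23783249, plus strand): gtcATGGTGCCAGCCTGA

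The third set shows the CAGTG loop in the 5' UTR of both ferritin mRNAs, in capitals, where iron regulatory proteins are known to bind. CAGTG was searched on the sense strand only, and it was also found in 19.7% of the 10103 tested mRNAs with a 5' UTR of at least 26 bases, so the letters alone are common.
FTL (chr19:48965337-48965362, plus strand): cttgcttcaaCAGTGtttggacggaa
FTH1 (chr11:61967575-61967600, minus strand): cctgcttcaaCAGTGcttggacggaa

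The fourth set shows the first in-frame TGA of 4 selenoprotein mRNAs, in capitals. In these mRNAs the TGA is read as selenocysteine rather than as a stop.
GPX4 (chr19:1105391-1105417, plus strand): gtggcctcccagTGAggcaagaccgaa
GPX1 (chr3:49358120-49358146, minus strand): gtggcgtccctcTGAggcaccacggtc
SELENOI (chr2:26389056-26389082, plus strand): ccaaactcagatTGActaggaatggaa
MSRB1 (chr16:1940800-1940826, minus strand): cagtcccgattcTGAatattcagcagc

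Among called genes with mean counts of at least 100 in both library types, most of the extreme ratios belonged to genes that share much sequence with other genes. Footprints are shorter than the 50 nt mRNA reads, and how reads with several matches were assigned was not stated in the sources used here. Identical mRNA counts occurred at different loci, such as 157 and 159 (a, b) in each of PPIAL4D, PPIAL4E and PPIAL4F. The same reads may thus enter more than 1 gene, and sums over genes may hold them repeatedly. For each gene, the share of 30-base windows of the coding region that occur exactly in another gene's transcript was therefore counted. It exceeded 10% in 2627 of 11190 genes (23.5%). The 8 lowest ratios of the named-gene rule were 7 NBPF genes, a family of recently duplicated genes, and ENSG00000286185. NBPF10 had 51.7 and 76.3 CPM in footprints and 1266 and 1432 CPM in mRNA, a log2 ratio of -4.39 (SE 0.16), and 95.1% of its windows were shared. The 8 highest were POTEF, 4 PPIAL4 genes, ACTA1, TUBA8 and H4C9. Of these, ACTA1 and H4C9 shared fewer windows, 11.4% and 22.9%. POTEF, whose coding region ends in an actin sequence, had 775 and 796 CPM in footprints against 3.52 and 2.98 CPM in mRNA, with 87.7% of windows shared. These 16 values may not describe the named locus and are less certain than the rest. Among the genes with at most 10% shared windows, a limit set with the values in view, 8563 were tested and 66.7% were called.

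Among genes with few shared windows and mean counts of at least 100 in both library types, DENND5A had the lowest ratio. This regulator of Rab GTPases at chr11:9138825-9265959 had 17.6 and 14.8 CPM in the footprint libraries and 194 and 190 CPM in the mRNA libraries. Its log2 ratio was -3.58 (SE 0.15, edgeR quasi-likelihood adjusted p = 6.41e-11). BLTP2, a lipid transfer protein, had 71.8 and 74.6 CPM in footprints and 758 and 742 CPM in mRNA, a log2 ratio of -3.36 (SE 0.11). RC3H2, an RNA-binding ubiquitin ligase, had a log2 ratio of -3.35, and the motor protein KIF1C one of -3.18. NSMF, GPBP1L1 and ARHGEF12, a guanine nucleotide exchange factor, followed at -3.31, -3.07 and -2.95. The kinases IRAK1, CDK16 and RPS6KB2 lay at -2.80, -2.79 and -2.66. In all of these genes both footprint values lay below both mRNA values. Such a gap was common, since 7571 of all 7606 called genes had the same direction in all 4 pairs. At least 1 ATG in the 5' UTR was annotated in 8 of the 12 lowest, against 41.6% of the 11101 tested genes with a complete annotation.

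At the other end, HSPA2, a heat shock protein 70 family member, had 228.1 and 199.4 CPM in footprints and 14.9 and 13.9 CPM in mRNA. Its log2 ratio of 3.89 (SE 0.14, edgeR quasi-likelihood adjusted p = 1.46e-11) corresponds to a 14.9-fold excess, with 1.59% of windows shared. ENO2, the neuronal form of the glycolytic enzyme enolase, had 137 and 143 CPM in footprints and 9.8 and 9.24 CPM in mRNA, a log2 ratio of 3.88 (SE 0.15). The histone variant H2AJ lay at 4.00, GAR1 of the H/ACA small nucleolar particle at 3.79, ZNF703 at 3.52, MARCKS at 3.08 and GATA3, a transcription factor, at 2.93. The footprint and mRNA values of these genes did not overlap. The genes were picked by their extreme ratios, and 7571 of all 7606 called genes had the same direction in all 4 pairs. The lack of overlap is therefore no separate support for them.

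**Figure D2:**
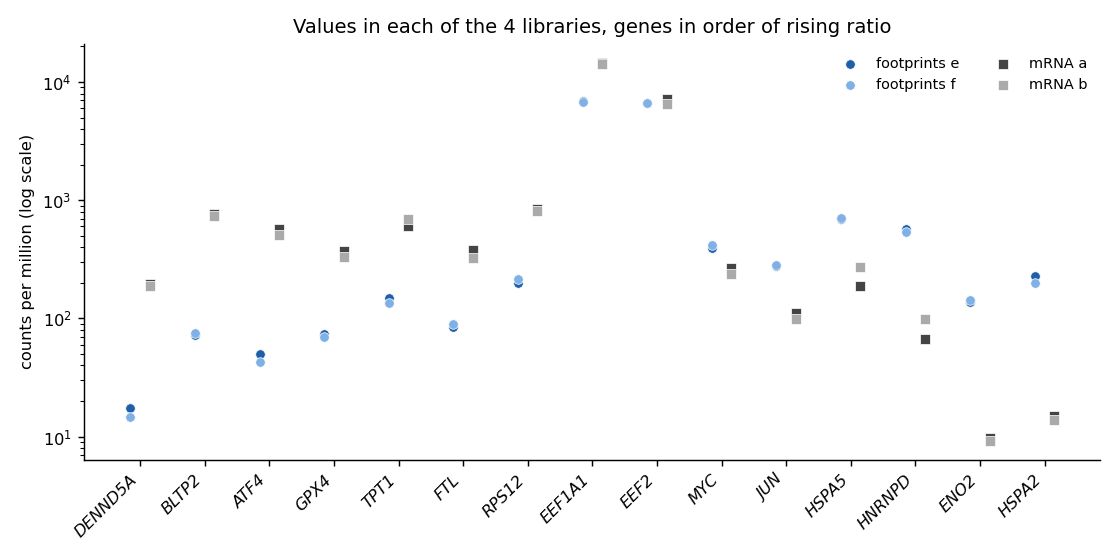
CPM on a log axis in the footprint libraries (circles) and the mRNA libraries (squares) for 15 genes in order of rising ratio. Replicates of each type lie close together, and the gap between types runs from mRNA far above footprints in DENND5A, with a log2 ratio of -3.58, to footprints far above mRNA in HSPA2, at 3.89.

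Ribosomal protein mRNAs carried fewer footprints than their abundance would give at a typical ratio. Ribosomal protein genes took 7.32% and 7.21% of all counts in the footprint libraries and 13.5% and 12.4% in the mRNA libraries. All 33 listed small subunit genes and all 47 listed large subunit genes passed the count minimum. In this and the following lists, a gene is called below or above 1 where it passed the test at an adjusted p under 0.1. Called below 1 were 24 small subunit and 34 large subunit genes and called above 1 were 5 and 5, against 36.4% and 31.3% of all tested genes. The median log2 ratio was -0.68 for the small and -0.80 for the large subunit, against -0.056 over all tested genes, and the difference from all genes ran from -0.82 to -0.57 over the 4 pairs for both subunits together. Within the small subunit, RPS12 was lowest at -1.99 (SE 0.10), with 201 and 215 CPM in footprints and 848 and 805 CPM in mRNA. RPS2 followed at -1.79. RPS16 was highest at 1.52 (SE 0.15), with 861 and 890 CPM in footprints and 240 and 373 CPM in mRNA, although its transcript opens with a pyrimidine run as well. Within the large subunit, RPL13A lay at -1.61 and RPLP1 at 1.09. Almost every ribosomal protein gene has processed copies in the genome, and only RACK1, at -0.20, had at most 10% shared windows, so the group could not be repeated on genes with few copies. The part of shared reads in these ratios and in the shares of counts was not tested.

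The annotated pyrimidine start did not separate the ribosomal protein genes. A start with C and at least 4 further pyrimidines was found in 48 of 79 ribosomal protein transcripts with a known start (60.8%), against 4.86% of the 11101 tested genes with a complete annotation. The median log2 ratio was -0.79 for the 48 with the run and -0.76 for the 31 without it. Among the genes outside the ribosomal protein and elongation lists, incomplete annotations included, 481 with the run had a median of -0.12 and 10609 without it a median of -0.048. The start sites are those of the annotation and were not measured here.

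Among elongation factors and other mRNAs of this class, 13 of 21 genes were called below 1 and 2 above, against 36.4% and 31.3% of all tested genes, with a median of -0.49. TPT1, a growth-related protein, was lowest, with 150 and 135 CPM in footprints, 603 and 688 CPM in mRNA and a log2 ratio of -2.18 (SE 0.11). EEF1A1, which delivers aminoacyl-tRNA to the ribosome, had 6876 and 6800 CPM in footprints and 14536 and 14122 CPM in mRNA, a log2 ratio of -1.07 (SE 0.07) with 98.5% of windows shared. EEF2, which moves the ribosome along the mRNA and shares 0% of its windows, had 6665 and 6645 CPM in footprints and 7141 and 6528 CPM in mRNA. Its log2 ratio of -0.038 (SE 0.078) did not pass the test. The intermediate filament gene VIM, which was on the same list, lay at 1.28. Only 3 of the 21 genes had few shared windows, and their median was -0.04.

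Genes that encode ubiquitin lay on both sides of the typical gene. RPS27A, a fusion of ubiquitin to a small subunit protein, had 569 and 507 CPM in footprints and 1112 and 1164 CPM in mRNA, a log2 ratio of -1.08 (SE 0.10, edgeR quasi-likelihood adjusted p = 1.8e-07). The polyubiquitin gene UBB lay at 1.34 (SE 0.09). In RPS27A 96.6% of windows were shared.

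Initiation factors and tRNA synthetases were close to the typical gene as groups. The initiation factors had 14 of 32 genes called above 1 and 9 below, against 31.3% and 36.4% of all tested genes, with a median of 0.17. EIF1, which guards start codon selection, lay at 2.54 and its paralogue EIF1B at 1.72, whereas EIF4G2, a scaffold related to eIF4G, lay at -1.78. The tRNA synthetases had 4 of 20 called above and 6 below, with a median of -0.01 and a range from IARS1 at -0.79 to VARS1 at 1.08.

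Replication-dependent histone mRNAs, which end in a stem-loop instead of a poly(A) tail, had the highest median of the 26 gene lists, at 1.57. Of 56 listed genes 51 passed the count minimum, and 51 of these were called above 1, 46 of them at least 2-fold, against 31.3% and 11.5% of all genes. The difference of the median from that of all genes ran from 1.40 to 1.81 over the pairs. Histone genes took 7.41% and 7.83% of footprint counts and 3.14% and 2.62% of mRNA counts, sums that may hold reads of identical copies repeatedly. Among the 20 genes with few shared windows all 20 were called above 1, with a median of 1.34. H1-3, a linker histone with 0% shared windows, was the lowest of the group at 0.91, with 260 and 272 CPM in footprints and 145 and 139 CPM in mRNA. H2BC3 and H2BC14 stood far outside the rest at 8.65 and 8.55, with 0.798 and 1.1 CPM of mRNA for H2BC3 against 408 and 365 CPM of footprints. The mRNA libraries were made from rRNA-depleted total RNA, which does not select for poly(A). The variant H2AX, listed with the repair genes, lay at 2.41.

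Cytoskeletal and immediate early genes followed. Of 15 cytoskeletal genes tested 14 were called above 1 and 0 below, against 31.3% and 36.4% of all tested genes, with a median of 1.34. TUBB6 was highest at 2.21, TUBA1B had 5077 and 5138 CPM in footprints and 2889 and 2570 CPM in mRNA at 0.90, and TUBG1 at 0.14 did not pass. Only 2 of these genes had few shared windows. Of 25 immediate early and short-lived genes 21 passed the minimum, and 20 were called above 1 and 0 below, with a median of 1.27. The difference of this median from that of all genes ran from 1.04 to 1.53 over the pairs. The mRNA-destabilising proteins ZFP36L1 and ZFP36L2 were highest at 2.66 and 2.63. JUN, a subunit of the AP-1 transcription factor, had 276 and 285 CPM in footprints and 110 and 99.4 CPM in mRNA, a log2 ratio of 1.42 (SE 0.11). MYC lay at 0.69 (SE 0.11), with 395 and 417 CPM in footprints and 268 and 237 CPM in mRNA, and ATF3 at 0.29 did not pass. The immediate early list barely overlapped with the copied genes, since 20 of the 21 had few shared windows and 19 of these were called above 1.

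**Figure D3:**
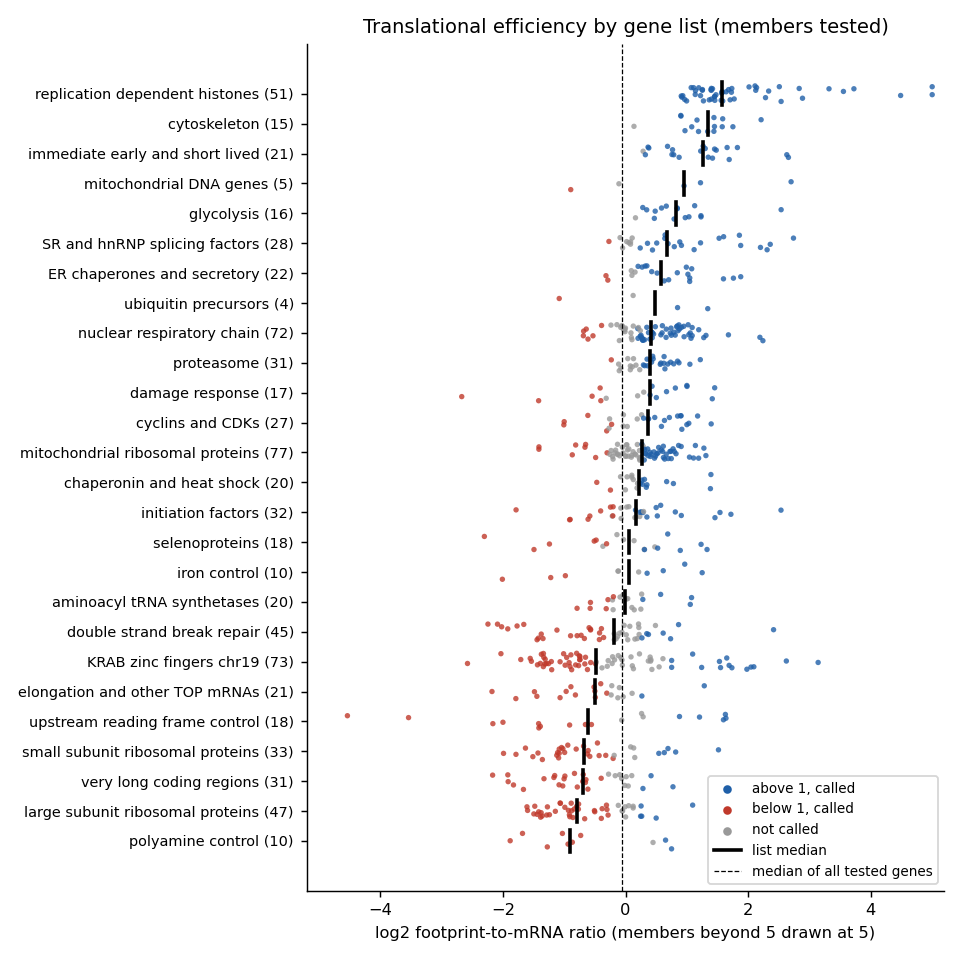
Log2 footprint-to-mRNA ratio of each tested member of the 26 gene lists, with the number tested in brackets, coloured by call at an adjusted p under 0.1. Black bars mark list medians and the dashed line the median of all tested genes, -0.056. Replication-dependent histones lie at the top with a median of 1.57 and polyamine control genes at the bottom with -0.90.

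Metabolic and secretory genes tended to lie above the typical gene. In glycolysis 15 of 16 genes were called above 1 and 0 below, against 31.3% and 36.4% of all tested genes, with a median of 0.82, which was 0.48 over the 6 genes with few shared windows. GAPDH had 4109 and 4184 CPM in footprints and 2889 and 2632 CPM in mRNA, a log2 ratio of 0.59 (SE 0.08), and the aldolase ALDOC reached 2.54. PFKM at 0.16 did not pass. Endoplasmic reticulum chaperones and secretory factors had 17 of 22 called above and 2 below, with a median of 0.57. The chaperone HSPA5 had 693 and 709 CPM in footprints and 189 and 274 CPM in mRNA, at 1.60 (SE 0.14). The translocon subunits SEC61G and SEC61B, with short coding regions, lay at 1.88 and 1.76, and calnexin (CANX) at -0.32. In the proteasome 20 of 31 were called above 1 and 1 below, with a median of 0.40, from PSMC1 at -0.23 to PSMB2 at 1.22. The chaperonin and heat shock list had 10 of 20 called above and 2 below, with a median of 0.22. HSPA1A, an inducible heat shock protein, had 13338 and 13548 CPM in footprints and 5560 and 4739 CPM in mRNA, but its sequence is nearly that of HSPA1B and 95.8% of its windows were shared.

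Nuclear genes of the respiratory chain had 49 of 72 called above 1 and 6 below, against 31.3% and 36.4% of all tested genes, with a median of 0.41, from SDHB at -0.69 to ATP5F1D at 2.24. Mitochondrial ribosomal proteins had 38 of 77 called above and 8 below, with a median of 0.27. This placed them on the other side of the typical gene from the cytosolic ribosomal proteins, and 55 of them had few shared windows, with a median of 0.31. Of the 13 mitochondrially encoded genes 5 were analysed here, and the difference of their median from that of all genes ran from 0.70 to 1.39 over the pairs. MT-CO2, a cytochrome oxidase subunit, had 770 and 703 CPM in footprints and 1279 and 1458 CPM in mRNA, at -0.89 (SE 0.10). MT-ND5 lay at 1.22, MT-ND4L at 0.95 and MT-ATP8, which overlaps MT-ATP6, at 2.70. These mRNAs are read by mitochondrial ribosomes, and other annotated genes share 16.1% to 64.6% of the windows of MT-CO2, MT-ND5, MT-ATP8 and MT-ATP6.

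Splicing factors were among the groups above the typical gene. Of 28 SR and hnRNP genes 20 were called above 1 and 1 below, against 31.3% and 36.4% of all tested genes, with a median of 0.67, and the 17 with few shared windows had a median of 0.88. HNRNPD, an AU-rich element binding protein, had 573 and 535 CPM in footprints and 67.1 and 98.8 CPM in mRNA, a log2 ratio of 2.74 (SE 0.15). HNRNPA3 lay at 2.36, HNRNPUL1 at -0.27 and SRSF10 at -0.089, which did not pass. In HNRNPD and HNRNPA3 mRNA library b was higher than library a, and their footprint values lay far above both mRNA values.

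Genes with known upstream reading frames covered both ends of the range. Of 21 such genes 18 passed the minimum, 10 were called below 1, 5 above and 3 did not pass, against 36.4% and 31.3% of all tested genes, with a median of -0.60. ATF4, the transcription factor of the integrated stress response, had 50.1 and 42.6 CPM in footprints and 567 and 507 CPM in mRNA, a log2 ratio of -3.54 (SE 0.13, edgeR quasi-likelihood adjusted p = 1.45e-11), or 0.086 of the typical ratio. Of its windows 63.5% were shared. PPP1R15A, which restores translation after stress, had 8.95 and 11.3 CPM in footprints and 48.1 and 43.2 CPM in mRNA, at -2.16 (SE 0.19), with 0% shared. IFRD1 lay at -2.0 with 100% of windows shared, PPP1R15B at -1.41 and MDM2 at -1.42. HSPA5 and CEBPB on the same list lay at 1.60 and 1.64. The median of the 13 members with few shared windows was -0.06, with 6 called below and 4 above, so the median of the whole list rested on members with copies. The difference of the list median from that of all genes was -0.55, ran from -0.74 to -0.37 over the pairs and was -0.24 without footprint library f. DDIT3, ATF5 and SLC35A4 fell under the count minimum. SLC35A4, whose mRNA carries 11 upstream ATGs, had 7 and 25 footprint counts against 924 and 983 mRNA counts.

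In the polyamine list, where translation is known to be set by polyamine level, 7 of 10 genes were called below 1 and 2 above, against 36.4% and 31.3% of all tested genes, with a median of -0.90. OAZ1, ornithine decarboxylase antizyme, which needs a frameshift, had 225 and 215 CPM in footprints and 868 and 750 CPM in mRNA, at -1.88 (SE 0.11). SAT1 and AMD1, which carry the short reading frames shown above, lay at -1.68 (SE 0.23) and -1.28 (SE 0.13). ODC1, ornithine decarboxylase, lay at -0.87 and its regulator AZIN1 at -0.94, or -0.48 without mRNA library b. OAZ2, another antizyme, lay at 0.75. The iron list had 4 of 10 genes called above 1 and 3 below, against 31.3% and 36.4% of all tested genes, with a median of 0.05. Among its 7 genes with few shared windows 3 were called above and 1 below, with a median of 0.21. FTL was lowest in this list, with 84 and 90.2 CPM in footprints, 377 and 325 CPM in mRNA and a log2 ratio of -2.01 (SE 0.12). FTH1 lay at -0.98 (SE 0.13). The transferrin receptor TFRC, whose regulatory elements lie in the 3' UTR, had 252 and 232 CPM in footprints and 195 and 223 CPM in mRNA, and its 0.21 (SE 0.11) did not pass. HMOX1, which degrades haem, lay at 1.25.

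In the selenoprotein list 6 of 18 genes were called above 1 and 6 below, near the 31.3% and 36.4% of all tested genes, with a median of 0.05. GPX4, the lipid peroxide reductase, had 73.8 and 69.2 CPM in footprints and 375 and 329 CPM in mRNA, a log2 ratio of -2.30 (SE 0.12) with 0% shared windows. GPX1, with 85.7% of windows shared, lay at -1.49 (SE 0.12) and SELENOP, with 10 in-frame TGA codons, at -1.24. MSRB1 and SELENOI lay at 1.33 and 1.23. The first TGA stood 19% along the coding region in GPX4, 24.1% in GPX1 and 15.5% in SELENOP, against 81.9% in MSRB1 and 97.5% in SELENOI. Over the 17 tested genes with an in-frame TGA the rank correlation of this position with the log2 ratio was 0.61, as a description over points that share the same libraries. TXNRD1, with 1 further codon between the TGA and the stop, lay at -0.51. Of other genes with an early TGA, SEPHS2 (13.4% along) was called below at -0.48. SELENOT (25.1%), SELENOM (33.1%) and GPX3 (32.3%) lay at -0.14, 0.31 and 0.48 and did not pass the test.

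Genes of the DNA damage response, measured here in cells without the cut, showed no common level. In the list of damage response genes 9 of 17 were called above 1 and 5 below, against 31.3% and 36.4% of all tested genes, with a median of 0.40. The ubiquitin ligase MDM2 and its relative MDM4 lay at -1.42 and -2.67. CDKN1A, the cell cycle inhibitor p21, had 8.48 and 4.68 CPM in footprints and 3.74 and 2.74 CPM in mRNA, at 1.00 (SE 0.32), and was not called without footprint library e, at 0.54. Of 45 double-strand break repair genes 22 were called below 1 and 7 above, with a median of -0.18. They ran from DCLRE1C at -2.24 and POLQ at -2.09 to RPA1 at 0.86 and H2AX at 2.41. Their median differed from that of all genes by -0.13, with a range over the pairs of -0.35 to -0.06, by -0.21 without footprint library e and by -0.32 without mRNA library a. JAK2, the gene that holds the guide target, had 3.61 and 2.28 CPM in footprints and 6.36 and 10.6 CPM in mRNA, a log2 ratio of -1.56 (SE 0.34). Cyclins and their kinases had 15 of 27 called above and 5 below, with a median of 0.37. KRAB zinc finger genes of chromosome 19 had 37 of 73 called below and 14 above, with a median of -0.49 that differed from that of all genes by -0.64 to -0.28 over the pairs. The 12 with few shared windows were all called below 1, with a median of -1.33. ZNF266 was lowest at -2.58, and ZNF43, with 30.7% of windows shared, highest at 3.14.

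The ratio fell with coding length. Length is given here as the deposited length column, which is the number of codons minus 19 for most transcripts. The class limits below are therefore lower than true codon numbers, and the shortest class ran from 6 to 99. The median log2 ratio was 0.42 for the 407 genes under 100 codons, 0.33 from 100 to under 200, 0.11 from 200 to under 400, -0.14 from 400 to under 800, -0.40 from 800 to under 1600 and -0.62 for the 560 genes of 1600 codons and over. In each of these classes the quartiles overlapped those of the next. The share of genes at least 2-fold above went from 25.3% in the shortest class to 3.93% in the longest, and the share at least 2-fold below from 6.14% to 34.1%. The rank correlation with length was -0.314 over 11234 genes and ran from -0.326 to -0.285 over the pairs. Of the 31 listed genes with very long coding regions 20 were called below 1 and 3 above, against 36.4% and 31.3% of all tested genes, with a median of -0.69. MACF1, a cytoskeletal linker, lay at -2.17, whereas PRKDC, the DNA-dependent protein kinase, was at 0.01, and LRP1 at 0.77. Ribosomal proteins are short and lay against this trend. Within quintiles of GC content the longest genes, of 800 codons and over, lay lower than those under 400 codons by a median of 0.49 to 0.74 on the log2 scale.

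ATG triplets in the 5' UTR went with lower ratios. The 6484 genes without one had a median log2 ratio of 0.14, the 2113 genes with 1 a median of -0.25, the 973 with 2 a median of -0.53 and the 662 with 5 or more a median of -0.71. At least 1 ATG was annotated in 72.2% of the genes at least 2-fold below and in 26.3% of those at least 2-fold above, against 41.6% of all. The order did not depend on the pair of libraries, since the rank correlation of -0.323 ran from -0.321 to -0.312 over the 4 pairs taken singly. The difference between genes with and without an ATG was present in every class of coding length, from -0.28 at 100 to under 200 codons to -0.58 at 1600 and over. It was present as well in every quintile of 5' UTR length, from -0.20 in the shortest to -0.75 in the longest. The 5' UTR length alone had a rank correlation of -0.182 and the 3' UTR length one of -0.137.

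Coding GC content had the largest rank correlation of the features examined, 0.345, but it depended on the mRNA library and ran from 0.188 to 0.459 over the pairs. The median log2 ratio was -0.36 in the quintile of genes poorest in GC and 0.47 in the richest, and the medians of the poorest quintile ran from -0.59 to -0.11 over the pairs. The part of the GC difference between the mRNA libraries in this relation was not tested. The bases around the start codon went with small differences. Genes with A or G at -3 and G at +4 had a median of -0.004, and genes with neither a median of -0.17.

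**Figure D4:**
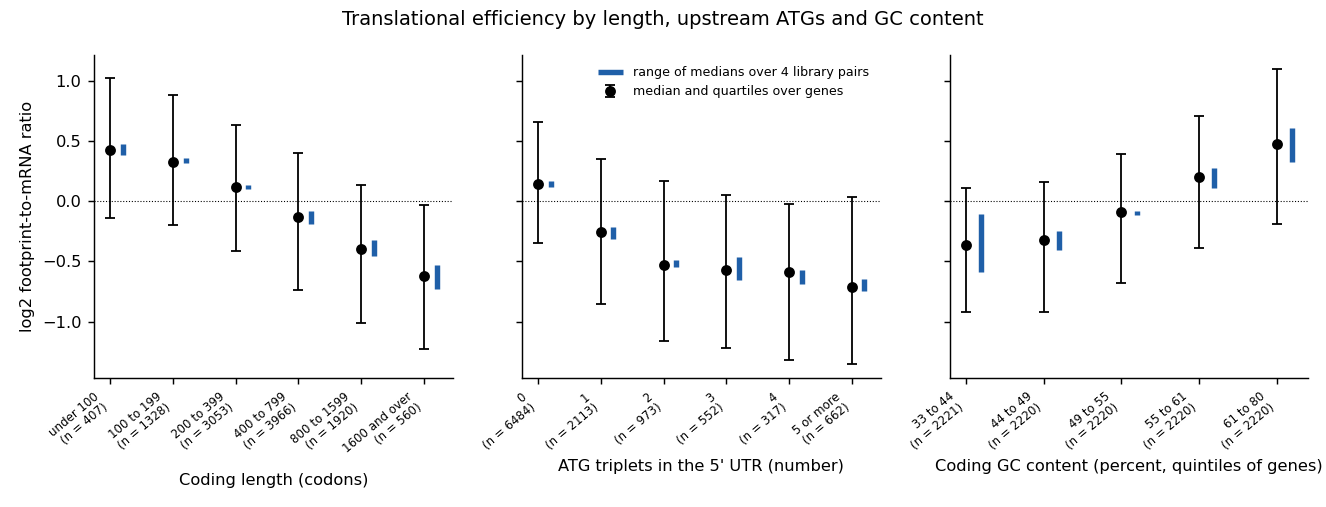
Median log2 footprint-to-mRNA ratio (points) with quartiles over genes (bars) by coding length, by the number of ATG triplets in the 5' UTR and by quintiles of coding GC content. Blue bars give the range of the medians over the 4 pairs of libraries, which is narrow for length and ATG number and wide for the genes poorest in GC, where it runs from -0.59 to -0.11.

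The ratio was weakly higher for mRNAs with more counts per codon. To keep the mRNA level out of its own ratio, genes with a mean mRNA count of at least 400 were ordered by counts per codon in one mRNA library and the ratio was taken on the other. Over 9217 genes the rank correlation was 0.209 on average and ran from 0.181 to 0.236. A gene with few counts per codon reaches the minimum of 400 only if its coding region is long. The lowest deciles therefore favour long genes, which had lower ratios, and the part of length in this relation was not tested. The median log2 ratio went from -0.42 in the lowest decile to 0.20 in the highest decile, with quartiles of -1.07 to 0.19 and -0.26 to 0.71. The 6 genes with the highest footprint CPM were H3C14, H3C15, HSPA1A, HSPA1B, EEF1A1 and EEF2, and reads of copies may be counted in more than 1 of them. Per 1000 codons, EEF2 had 7932 footprint CPM and 8146 mRNA CPM, and EEF1A1 had 15435 footprint CPM and 32345 mRNA CPM.

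Some mRNAs with a mean count of at least 200 had few footprints. Of 10620 genes with a mean mRNA count of at least 200, 260 (2.45%) had a mean footprint count under 20 and were left out of the test. The 6 with the most mRNA were RSC1A1 and 5 NPIPA genes, all with over 97% of windows shared. SNHG32, an annotated noncoding host gene of small nucleolar RNAs, had 0 and 4 footprint counts against 1272 and 1720 mRNA counts. C6orf62, with 0% of windows shared and 5 upstream ATGs, had 17 and 14 footprint counts against 1045 and 1819 mRNA counts, and the homeobox gene HOXD10 had 13 and 14 against 959 and 1232. These 3 were picked out with their values in view. Other left-out genes lay near both limits, such as LHX8, with 1.57 and 3.24 CPM in footprints against 5.89 and 4.17 CPM in mRNA. Of the 252 left-out genes with an annotated 5' UTR, 181 (71.8%) had at least 1 upstream ATG, against 41.6% of the 11101 tested genes with a complete annotation. In 82 of the 260 left-out genes over 10% of windows were shared.

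The same ratio was computed in libraries that were not used above. In Cas9 cells at 72 h, which received the cutting enzyme, 74.7% of tested genes were called in either direction, and in dCas9 cells at 36 h, whose footprint libraries were shallower, 35.9%. Of the genes at least 2-fold above in dCas9 cells at 72 h and tested at 36 h, 1039 of 1050 had the same sign and 802 (76.4%) were called in that direction. Of those at least 2-fold below, 1319 of 1339 had the same sign and 977 (73%) were called. With a block for the replicate letter at 36 h, where letters are shared between library types, these shares were 66% and 68%. The rank correlation of the ratio with that of dCas9 cells at 72 h was 0.942 over 10409 genes in Cas9 cells at 72 h and 0.851 over 9414 genes in dCas9 cells at 36 h. These describe genes with the same length, composition and copies in both. List medians at 36 h were -0.79 for ribosomal proteins, 1.60 for histones and 1.22 for immediate early genes, against -0.77, 1.57 and 1.27 for the same genes here. Other lists came out differently. The upstream reading frame list lay at -0.16 at 36 h against -0.56 here, the tRNA synthetases at -0.32 against -0.014 and the initiation factors at -0.0016 against 0.16. ATF4 lay at -3.61 in Cas9 cells and at -2.85 at 36 h, and FTL at -2.10 and -1.83.

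A few named genes departed from this. RPS16 lay at 3.43 in Cas9 cells at 72 h and at -0.49 (SE 0.16) in dCas9 cells at 36 h, against 1.52 here, so its place at the top of the small subunit list was not found at 36 h. FTH1 lay at -0.12 in Cas9 cells, where it did not pass the test, and at -1.48 at 36 h, against -0.98 here. The mitochondrial genes also moved. MT-CO2 lay at 0.44 in Cas9 cells and at -3.04 at 36 h, and MT-ATP6 at 1.19 and -2.47, against -0.89 and -0.11 here. The median of the 5 mitochondrially encoded genes was -1.23 at 36 h against 0.95 here. HSPA2 lay at 3.91 in Cas9 cells and at 1.07 (SE 0.44) at 36 h, where it did not pass the test. ENO2 remained far above the typical gene at 4.47 and 3.57, and DENND5A far below it at -3.62 and -3.56. The guides differed between the times, synthesised in vitro by transcription at 72 h and chemically at 36 h, and the methods name a different aligner and annotation release for each, so time, guide and processing cannot be told apart.

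**Figure D5:**
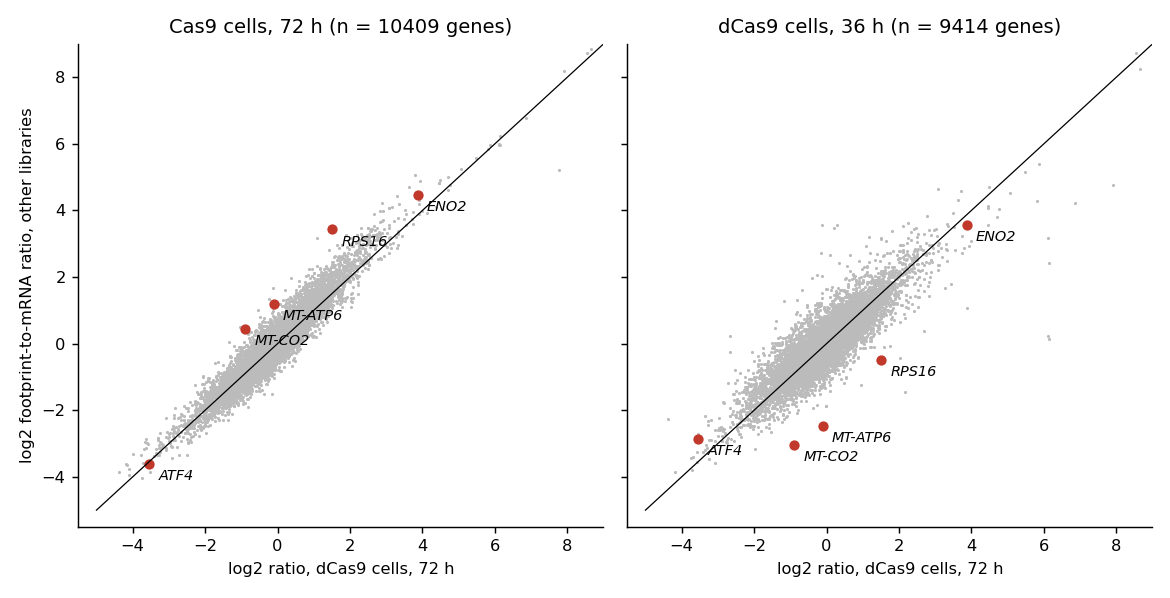
Log2 footprint-to-mRNA ratio in Cas9 cells at 72 h (left, 10409 genes) and in dCas9 cells at 36 h (right, 9414 genes) against the ratio in dCas9 cells at 72 h, with the line of equality. Genes lie along the line in both, with rank correlations of 0.942 and 0.851, and RPS16, MT-CO2 and MT-ATP6 lie away from it at 36 h.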

How the data were processed

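The authors sequenced RNase I footprints and rRNA-depleted total RNA as 50 nt reads, aligned them to GRCh38 (at 72 h the methods name TopHat and GENCODE release 25, whereas the submitters' processing notes list HISAT2 2.1.0) and deposited raw counts of reads per coding transcript, with a length column that is the number of codons minus 19 for most transcripts. Identifiers were matched to GENCODE release 44 on hg38, which carried 95.6% to 95.8% of the counts of the 4 libraries. One transcript per gene was kept, that with the highest summed count over the 4 libraries. Gene IDs with no release 44 match, ACTB, MT-CO1 and other genes were not analysed here.

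Footprint and mRNA libraries were compared with edgeR 4.0.16 (R 4.3.3) by glmQLFit and glmQLFTest with TMM scaling and Benjamini-Hochberg adjustment at 0.1, over genes whose mean count reached 20 in both library types. Pairwise ratios used a prior count of 2. With 2 libraries per type drawn from plates whose independence the labels do not state, p-values measure the spread between these libraries only. The methods describe lysates divided between both assays, but footprint letters (e, f) and mRNA letters (a, b) do not show which libraries share a lysate, so the fit was unpaired. The fit was tested on simulated data. Totals per library set the precision, and reads carry no molecular identifiers, so errors from counting alone are a lower bound. Ratios are log2 of footprint over mRNA CPM, and list and feature values are medians over genes, computed in Python 3.11.15 with scipy 1.17.1.

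Named genes were the 8 highest and 8 lowest called genes whose mean count reached 100 in both types, with the same direction in all 4 pairs, a fixed set of control genes, the 6 with most footprints, the extremes of each list and the 6 left-out genes with most mRNA, and some of these are not reported here. The members and lists were chosen with earlier results of these data known. Alternatives were other scalings, count minimums, transcripts, fits and leaving out each library.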

Additional observations from a re-analysis of the deposited data

Results flagged for a closer look

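Of the named genes, 5 comparisons had all 4 pairs of libraries on opposite sides of the typical gene in dCas9 cells at 72 h and in other libraries. Here each pair was centred on its own median, and the differences were not tested. RPS16 had a median log2 ratio of 1.58 over the pairs (1.28 to 1.90) against -0.50 (-0.72 to -0.30) in dCas9 cells at 36 h. HSPA8 had 0.16 against -0.18 at 36 h and -0.05 in Cas9 cells at 72 h. MT-CO2 had -0.85 against 0.44 in Cas9 cells at 72 h, and HNRNPUL1 had -0.24 against 0.05. The values of HSPA8 and HNRNPUL1 are small beside the spread of ratios over genes. No group had 4 or more libraries, so no search for outlying libraries was made.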

How the results depend on the processing

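Leaving out each library in turn gave 5981 to 8097 called genes against 7606, 1253 to 1552 genes at least 2-fold above, 1651 to 1874 at least 2-fold below, a rank correlation with coding length of -0.323 to -0.293 and, without either footprint library, one with abundance of 0.206 to 0.213. Abundance without an mRNA library was not run, because the ratio and the abundance then share the other one. Of the 26 lists, 18 had a median above that of all genes with every library left out. In a fit of all 8 libraries of 72 h with the replicate block, 7716 genes were called. The footprint and mRNA letters of dCas9 cells share none, so this block pairs Cas9 with dCas9 libraries only. TFRC and HSPA8 were then called as well and no named call was lost. Without a count minimum 2688 genes lay at least 2-fold below, and the rank correlations were -0.183 with coding length and 0.123 with abundance. With filterByExpr the former was -0.275. At a minimum of 100 counts, with 7939 genes tested, 811 genes lay at least 2-fold above and 1050 below, with -0.352 and 0.142 for the correlations. With few shared windows the correlation with coding length was -0.336.

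The sign of some values near 0 changed. EEF2 went to 0.017 with DESeq2 size factors and in the DESeq2 Wald test, to 0.00999 with filterByExpr and, with each library left out, to between -0.10 and 0.095. HSPA8 and TUBG1 went to -0.029 and -0.019 with plain totals. With each library left out SRSF10 ran from -0.21 to 0.047, positive without footprint library f (0.017) and without mRNA library b, and MT-ATP6 from -0.30 to 0.21, positive without mRNA library b. As differences from all genes, the median of the repair genes went to 0.033 and that of the KRAB genes to 0.0029 without a count minimum. Selenoproteins went to -0.13 at a minimum of 100 counts and to -0.013 with at least 100 codons, where the mitochondrial genes stood at -0.034. With few shared windows the elongation list went to 0.048 over 3 genes and the upstream reading frame list to 0.024 over 13. Leaving out 1 library moved other list differences by over 1.5 times, to -0.29 for the elongation list without mRNA library b. The iron list (0.10) went to 0.29 without mRNA library b and 0.044 without a, and the selenoproteins (0.11) to 0.19 without a, 0.05 without b and 0.034 without footprint library f. The tRNA synthetases (0.043) went to 0.078 without footprint library e or mRNA library a, 0.025 without b and 0.0034 without f. Calls of PABPC1, PSMC1, DNAJA1, RPN1, HK1, JUND and HNRNPUL1 were lost without either footprint library, that of CANX at -0.26 without f and that of PLEC at 0.35 without e. The causes were not tested. At these depths a gene needs 20 footprint counts to be tested at all, which limits statements on poorly translated mRNAs.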
